A study of Mus musculus with 6 samples.

Results

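Spliced noncoding RNAs that carry small nucleolar RNAs (snoRNAs) in their introns were compared between mouse embryonic stem cells lacking Mettl5 and wild-type (WT) cells. The genes were Gas5, Snhg1, Snhg3, Snhg5, Snhg6, Snhg8, Snhg12, Snhg15, Zfas1 and Epb41l4aos, matched by GENCODE M21 symbol, and all 10 of 10 were found among the 24191 genes of the table. PolyA RNA was sequenced from 3 Mettl5 -/- libraries (called knockout here) and 3 WT libraries of J1 cells, a male mouse embryonic stem cell line, all cultured in serum with LIF, the cytokine that holds such cells undifferentiated. How the alleles were disrupted, whether the knockout is 1 clone and whether replicates were separate cultures are not stated in the labels; every p below rests on the spread among these libraries alone, which may be technical.

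Host genes of this class are transcribed and spliced like messenger RNAs, and the snoRNA is trimmed out of a removed intron while the joined exons form an RNA with little or no coding capacity. The snoRNAs, of the box C/D kind (which guide ribose methylation) or the box H/ACA kind (which guide pseudouridylation), act mainly on ribosomal RNA, the same substrate on which METTL5 places N6-methyladenosine. Many of the hosts begin with a terminal oligopyrimidine tract, as ribosomal protein messenger RNAs do, and several of their spliced RNAs, Gas5 the best known, are degraded by nonsense-mediated decay when they are translated. Their polyA level therefore joins synthesis and decay, which cannot be told apart here.

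Mettl5 itself was at 3.65, 3.58 and 3.32 in the knockout libraries, against 50.3, 48.6 and 48.7 in the WT libraries, on the TPM scale, the deposited length-normalised column. Library totals were 51499598 to 51829716 scaled reads in knockout and 46076612 to 46541352 in WT libraries, and depth estimated from the steps of the low values was 40439417 to 59642941 fragments in knockout and 38543563 to 52749412 in WT libraries. The summed level of 10 embryonic stem cell markers was 2178 to 2273 in knockout and 2832 to 2920 in WT libraries, with 2 of the 10 called higher and 6 lower (called: limma BH-adjusted p under 0.05, BH being the Benjamini-Hochberg method). For 14 fibroblast markers, which would mark feeder cells, the sum was 49.3 to 50.8 in knockout and 25.6 to 27.9 in WT libraries, with 12 of 14 called higher and 2 lower. Of all tested genes, 33.6% were called higher and 28.9% lower. Each sum hides unlike changes of single markers. Among stem cell markers, Zfp42 was at 237.5 in knockout and 583.5 in WT libraries on average. Nanog, not called, was at 156.6 and 158.1, and Lin28a, called higher, at 143.8 and 100.3. Among fibroblast markers, Col1a1 was at 17.7 in knockout and 0.694 in WT libraries on average, and Lox at 2.43 and 0.0361. Thy1, 1 of the 2 called lower, was at 5.91 and 13.1. No marker of either list was at 0 in all libraries of a genotype. Their part in the results below was not tested. In bulk RNA, fewer cells expressing a gene and less RNA per cell cannot be told apart.

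The starts of the host genes are shown because their first bases define the oligopyrimidine class. Each line gives 60 bases, 30 on each side of a RefSeq start (GRCm38.p6), for the 8 hosts in the RefSeq promoter table. Capitals mark the longest run of C and T that begins with C between 5 bases before and 10 bases after the start, on the gene's own strand.
Gas5, upstream start (chr1:161034571-161034630, plus strand): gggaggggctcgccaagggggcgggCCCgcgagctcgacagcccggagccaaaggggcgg
Gas5, downstream start (chr1:161035136-161035195, plus strand): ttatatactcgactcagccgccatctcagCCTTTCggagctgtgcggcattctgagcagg
Zfas1 (chr2:167062904-167062963, plus strand): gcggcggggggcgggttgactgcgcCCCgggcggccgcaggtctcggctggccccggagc
Snhg8 (chr3:123508307-123508366, minus strand): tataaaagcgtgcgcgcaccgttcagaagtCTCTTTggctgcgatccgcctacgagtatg
Snhg12 (chr4:132308648-132308707, plus strand): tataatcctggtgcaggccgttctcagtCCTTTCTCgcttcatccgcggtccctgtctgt
Snhg3 (chr4:132353657-132353716, minus strand): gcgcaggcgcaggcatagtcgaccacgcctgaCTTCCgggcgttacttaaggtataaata
Snhg5 (chr9:88522868-88522927, minus strand): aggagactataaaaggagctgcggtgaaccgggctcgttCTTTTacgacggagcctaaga
Snhg15 (chr11:6528731-6528790, minus strand): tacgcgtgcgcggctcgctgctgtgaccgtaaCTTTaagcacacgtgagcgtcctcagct
Snhg1 (chr19:8723457-8723516, plus strand): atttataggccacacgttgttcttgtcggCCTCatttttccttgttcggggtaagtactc
A run of at least 6 bases was found in 3 of the 8 hosts, Gas5 at its downstream start, Snhg8 and Snhg12. The same was true of 16.1% of the 27025 genes with a promoter sequence, of 17.7% of 198 protein-coding snoRNA host genes and of 38.5% of 26 other noncoding host genes. Snhg3 and Snhg5 had runs of 5 bases. A match describes these letters only, and RefSeq starts need not be the starts used in these cells.

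The host RNAs were abundant. Gas5 was the most abundant in both genotypes, at 442 ± 3.71 in knockout and 404 ± 12.9 in WT cells (TPM scale, SD, n = 3), followed by Snhg1 at 279 ± 7.8 and 250 ± 3.22. Snhg15 was the lowest, at 68.5 ± 1.98 in knockout and 69.9 ± 1.33 in WT cells. By mean level the hosts held ranks 7 to 33 among 4127 genes annotated as noncoding in the table, and stood between percentiles 91.5 and 98.6 of all genes. An estimated 999 fragments or more backed every host in every library, and 14615 at most. The spread between replicates includes that counting error. Their summed level was 1613, 1590 and 1596 in the knockout libraries, against 1464, 1550 and 1457 in the WT libraries, without overlap. As a share of each library's TPM total, which itself was larger in knockout libraries, they made up 0.157% ± 0.00131 in knockout and 0.153% ± 0.00469 in WT libraries (SD, n = 3), and those ranges overlapped.

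The order of the levels changed in the middle of the list. In knockout cells it ran Gas5, Snhg1, Snhg5, Zfas1, Epb41l4aos, Snhg3, Snhg8, Snhg12, Snhg6 and Snhg15, and in WT cells Gas5, Snhg1, Zfas1, Snhg3, Snhg8, Snhg5, Epb41l4aos, Snhg6, Snhg12 and Snhg15. Snhg5 held position 3 in knockout and 6 in WT cells, whereas Snhg3 held position 6 in knockout and 4 in WT cells. Library ranges of neighbours in the order overlapped for Snhg5 with Zfas1, Epb41l4aos with Snhg3 and Snhg3 with Snhg8 in knockout cells, and for Snhg5 with Epb41l4aos and Epb41l4aos with Snhg6 in WT cells. The other neighbours stood apart.

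**Figure D1:**
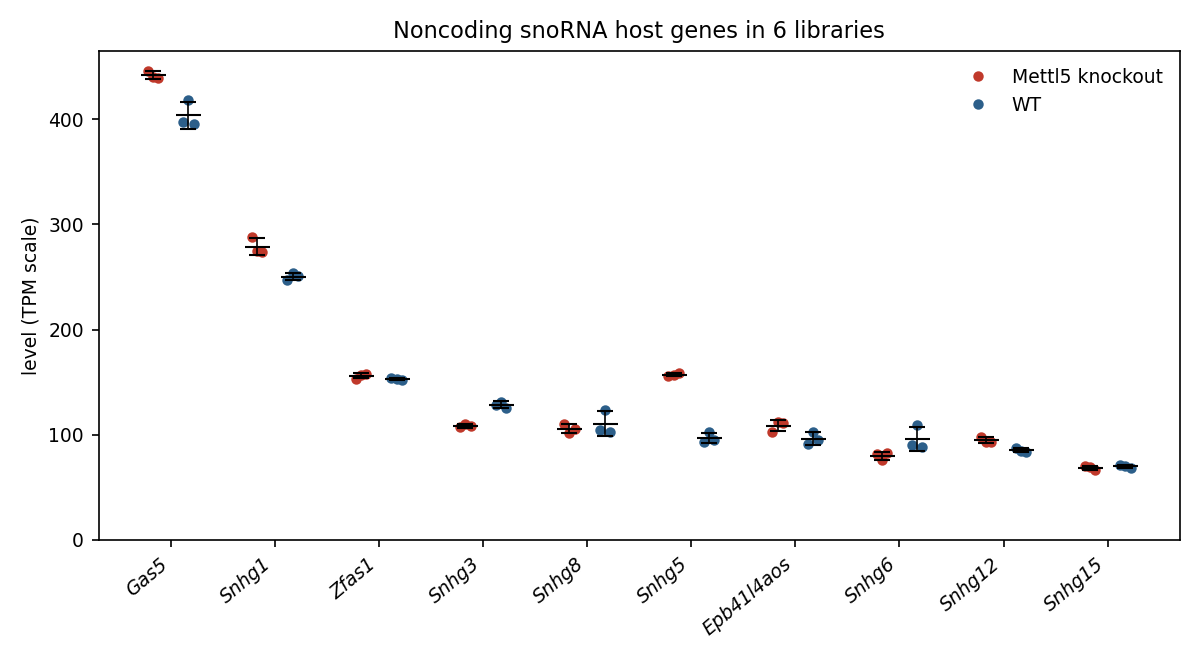
Level of the 10 host genes on the TPM scale in each library, with knockout libraries in red on the left and WT libraries in blue on the right of each pair; black bars are means ± SD of 3 libraries. Snhg5 (157 in knockout, 97.0 in WT) shows the widest gap, and Snhg3 (108 and 128) one in the other direction.

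The hosts did not move as a block. Snhg5 was higher in knockout cells by 1.70-fold, Gas5, Snhg1, Snhg12, Zfas1 and Epb41l4aos were higher by 1.07- to 1.22-fold, Snhg3 was lower, and Snhg6, Snhg8 and Snhg15 did not pass the threshold. Thus 6 of 10 were called higher and 1 lower (limma on log2(scaled reads + 1) over 24183 genes, BH-adjusted p under 0.05). Of all tested genes, 33.6% were called higher and 28.9% lower. The median log2 fold change of the hosts was 0.16, against 0.00 for all tested genes. When every library was scaled to 1 common total, the median over all genes became -0.15, and 2 hosts were called higher and 3 lower, beside 26.1% and 37.8% of all genes. On the TPM column 5 were called higher and 2 lower, beside 29.8% and 31.9% of all genes, and with values centred on each chromosome's median also 5 and 2, beside 31.7% and 29% of all genes. On the TPM scale the groups did not overlap for 6 hosts, 4 higher and 2 lower in the knockout, as for 32.5% and 35.7% of all genes. On scaled reads 7 were higher and 2 lower without overlap, as for 35.8% and 32.1% of all genes.

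Snhg5 (ENSMUSG00000097195, chr9:88521050-88522929, minus strand) hosts Snord50a and Snord50b, box C/D snoRNAs that in human cells guide methylation of the large ribosomal RNA. Coordinates are GRCm38. It was at 156, 157 and 158 in the knockout libraries, against 93.1, 102 and 95.4 in the WT libraries (TPM scale). Every knockout library lay above every WT library. The log2 fold change was 0.77 (SE 0.037, 95% interval 0.68 to 0.85, limma BH-adjusted p 1.25e-07), and it stayed between 0.61 and 0.81 under the alternatives tried. No annotated protein-coding gene lay within 10 kb. A stretch of its annotated transcript with the most exons (Snhg5-202, GRCm38 chr9:88521050-88522929, minus strand, 6 exons, 781 bases) is shown, bases 251 to 450, because it is the member with the widest difference and shows what a host RNA looks like once its snoRNAs are gone. Capitals mark 4 bases on each side of the 2 exon junctions where the introns that hold Snord50b and then Snord50a were removed.
Snhg5-202: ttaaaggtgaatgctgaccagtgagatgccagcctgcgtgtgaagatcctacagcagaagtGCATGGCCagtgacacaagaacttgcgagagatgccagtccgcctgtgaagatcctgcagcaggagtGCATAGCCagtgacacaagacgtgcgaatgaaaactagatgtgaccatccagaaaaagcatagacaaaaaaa
Neither of its snoRNAs was among the genes of the table.

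Gas5 (ENSMUSG00000053332, chr1:161034422-161038539, plus strand) is named for its accumulation in growth-arrested cells, and 10 annotated snoRNA gene entries lie inside it, with Snord80 entered more than once. It was at 446, 440 and 439 in the knockout libraries, against 397, 418 and 395 in the WT libraries, with no overlap. The log2 fold change was 0.21 (SE 0.0271, limma BH-adjusted p 0.000102), but with equal totals it was 0.05 and did not pass the threshold. Snhg1 (ENSMUSG00000108414, chr19:8723475-8726443, plus strand) carries Snord22 and 7 other annotated snoRNAs. It was at 288, 275 and 274 in the knockout libraries and 247, 253 and 251 in the WT libraries. Again the groups did not overlap, with a log2 fold change of 0.24 (SE 0.0284, limma BH-adjusted p 6.17e-05) that was 0.08 and still called with equal totals.

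Snhg12 (ENSMUSG00000086290, chr4:132308623-132311024, plus strand) holds 5 annotated snoRNA gene entries, Snora44 among them, with Snora16a entered more than once. Its annotated exons, retained-intron transcripts aside, add up to 2402 bases and overlap every one of these entries. Its level can therefore include RNA that keeps snoRNA sequence. Snhg12 was at 98.1, 93.0 and 92.9 in the knockout libraries, against 87.8, 84.8 and 83.9 in the WT libraries, without overlap. Its log2 fold change of 0.21 (SE 0.032, limma BH-adjusted p 0.000289) was 0.06 and not called with equal totals. Epb41l4aos (ENSMUSG00000087590, chr18:33794892-33795986, plus strand) was at 102, 112 and 111 in the knockout libraries and 91.3, 103 and 94.9 in the WT libraries, so that the groups overlapped on this scale. Its log2 fold change was 0.29 (SE 0.0585, limma BH-adjusted p 0.00206). With equal totals it was 0.13 and with values centred per chromosome 0.04, neither called. Zfas1 (ENSMUSG00000074578, chr2:167062934-167065862, plus strand) carries Snord12 and 2 other annotated snoRNAs and lies head to head with Znfx1. It was at 153, 157 and 158 in the knockout libraries and 154, 153 and 152 in the WT libraries, overlapping on the TPM scale. Its log2 fold change of 0.10 (SE 0.0261, limma BH-adjusted p 0.00681) became -0.05 with equal totals.

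Snhg3 (ENSMUSG00000085241, chr4:132348014-132353686, minus strand) hosts Snora73a and Snora73b, the U17 RNAs needed for early cleavage of the ribosomal RNA precursor. Both snoRNAs also lie within Rcc1 (chr4:132331919-132353605), which overlaps Snhg3 on the same strand. How reads divide between Snhg3 and Rcc1 is therefore uncertain. Snhg3 was at 107, 110 and 108 in the knockout libraries, against 129, 132 and 125 in the WT libraries. All knockout libraries lay below all WT libraries, and the log2 fold change was -0.14 (SE 0.0319, limma BH-adjusted p 0.00338), or -0.30 with equal totals. Snhg6 (ENSMUSG00000098234, chr1:9941959-9944118, minus strand), the host of Snord87, was at 81.7, 75.8 and 82.8 in the knockout libraries, against 90.0, 109 and 88.8 in the WT libraries. The groups did not overlap on the TPM scale, but WT replicate 2 stood well above the other WT libraries, and the log2 fold change of -0.17 (SE 0.0721, limma BH-adjusted p 0.0688) was not called. Without WT replicate 2 it was -0.08 and not called. It was called at -0.22 without WT replicate 1, at -0.21 without WT replicate 3, at -0.33 with equal totals and at -0.28 with values centred per chromosome.

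Snhg8 (ENSMUSG00000104960, chr3:123507552-123508404, minus strand) hosts Snora24, a box H/ACA guide. It was at 110, 102 and 105 in the knockout libraries and 105, 124 and 103 in the WT libraries. The groups overlapped, WT replicate 2 again being the highest, and the log2 fold change was 0.03 (95% interval -0.12 to 0.18, limma BH-adjusted p 0.71). Without WT replicate 2 it was 0.11 and called, and over all left-out libraries it ran from -0.01 to 0.11. Snhg15 (ENSMUSG00000085156, chr11:6525591-6528760, minus strand) hosts Snora9. It was at 70.2, 69.0 and 66.3 in the knockout libraries and 71.0, 70.4 and 68.5 in the WT libraries, with overlap. Its log2 fold change was 0.05 (95% interval -0.02 to 0.13, limma BH-adjusted p 0.203). That value depends on the yardstick: the median of the 1787 tested genes on chromosome 11 was -0.41, and relative to its chromosome Snhg15 was called higher at 0.45, while with equal totals it was called lower at -0.10.

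**Figure D2:**
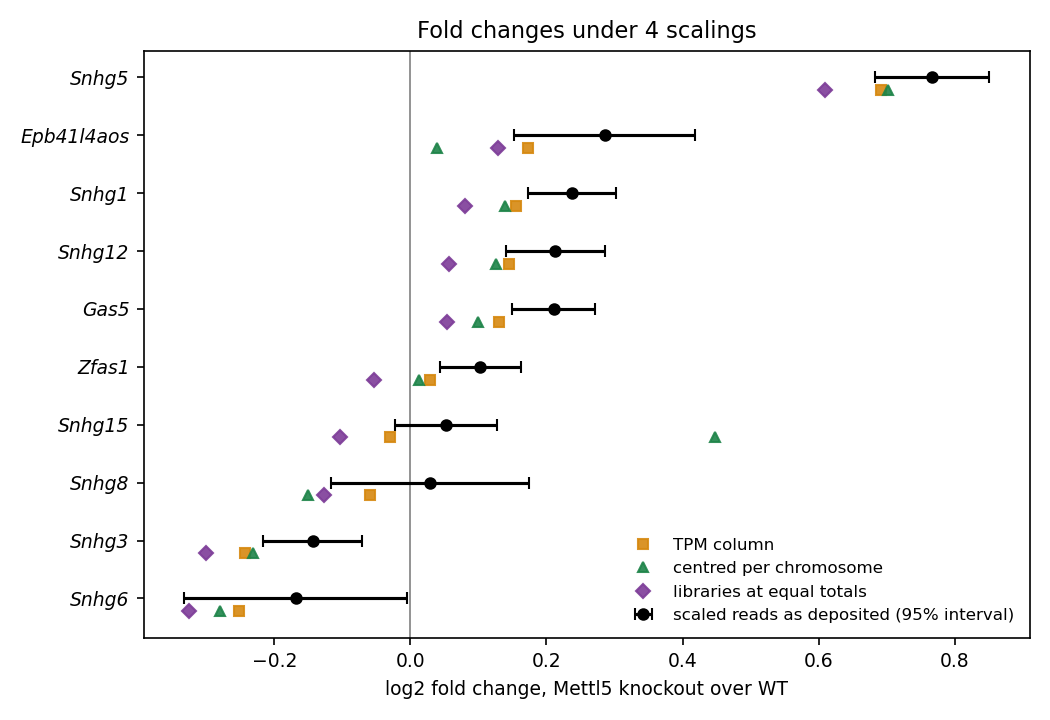
Log2 fold change of each host gene, knockout over WT, on the deposited scaled reads (black, with 95% intervals) and under 3 other scalings (coloured, no intervals drawn). Snhg5 stays between 0.61 and 0.77 and Snhg3 between -0.30 and -0.14 under all 4, while Zfas1, Snhg8 and Snhg15 have points on both sides of 0.

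Ratios between hosts within a library depend little on how libraries are scaled. The log2 ratio of Snhg5 to Snhg3 (TPM scale + 1) was 0.54, 0.51 and 0.55 in the knockout libraries, against -0.46, -0.36 and -0.39 in the WT libraries, a difference of 0.94. The log2 ratio of Snhg5 to Gas5 was -1.51, -1.48 and -1.47 in the knockout libraries and -2.08, -2.02 and -2.04 in the WT libraries. Snhg12 and Snhg3, both on chromosome 4, had a log2 ratio of -0.19 ± 0.0616 in knockout and -0.58 ± 0.0416 in WT libraries (SD, n = 3). None of these ratios overlapped between genotypes. Each had an exact permutation p of 0.1 (two-sided, or 0.117 adjusted over 21 ratios), the smallest that 3 against 3 libraries allow. The pairs were picked by hand. For Snhg5 over Snhg3 and Snhg12 over Snhg3 this outcome was fixed, because those hosts already stood apart in opposite directions on the TPM scale. These ratios therefore add no separate test to the fold changes above. Spread within a genotype was shared in part: WT replicate 2 was the highest WT library for 7 of the 10 hosts. The coefficient of variation among WT libraries was 11.8% for Snhg6 and 10.7% for Snhg8, and 0.66% to 6.1% for the other hosts, while among knockout libraries it was 0.73% to 5.0%.

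SnoRNAs inside the hosts were compared with the hosts that carry them. GENCODE places 34 snoRNA gene entries within the 10 hosts on the same strand, with Snord80 and Snora16a each entered more than once. Of the 34 entries, 8 were in the table. Of these, 5 were called lower in the knockout and none higher, with 3 not called (median log2 fold change -0.93). Of all 215 tested snoRNAs, 43.7% were called lower and 3.26% higher, with a median of -0.63, so lower calls were common among snoRNAs at large. Mature snoRNAs have no polyA tail, and reads of carried-over snoRNA and of unspliced host RNA cannot be told apart in a polyA library. Of the 8, 4 also overlap an annotated exon of their host (Snora9, Snora44, Snora73a and Snord22), where reads can be split between the 2 genes.

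The sequences of 6 of these snoRNAs, those with a Snora or Snord symbol, are given. They are GENCODE M21 transcripts on GRCm38. Capitals mark the letters ACA found near the 3′ end of a box H/ACA RNA, and in box C/D RNAs TGATGA near the 5′ end (C box) and CTGA near the 3′ end (D box), all read on the snoRNA's own strand. Snora44 had no such ACA and Snord22 no such TGATGA.
Snora9 (chr11:6528033-6528165, minus strand): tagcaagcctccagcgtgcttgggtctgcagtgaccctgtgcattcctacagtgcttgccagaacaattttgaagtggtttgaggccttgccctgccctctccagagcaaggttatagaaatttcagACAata
Snora44 (chr4:132309941-132310069, plus strand): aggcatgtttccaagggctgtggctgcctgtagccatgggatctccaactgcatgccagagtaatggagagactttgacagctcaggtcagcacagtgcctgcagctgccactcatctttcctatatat
Snora73b (chr4:132352322-132352526, minus strand): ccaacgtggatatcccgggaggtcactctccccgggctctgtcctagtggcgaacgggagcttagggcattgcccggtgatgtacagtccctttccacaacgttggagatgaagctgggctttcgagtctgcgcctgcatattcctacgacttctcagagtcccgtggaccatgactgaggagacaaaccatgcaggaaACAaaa
Snora73a (chr4:132352775-132352979, minus strand): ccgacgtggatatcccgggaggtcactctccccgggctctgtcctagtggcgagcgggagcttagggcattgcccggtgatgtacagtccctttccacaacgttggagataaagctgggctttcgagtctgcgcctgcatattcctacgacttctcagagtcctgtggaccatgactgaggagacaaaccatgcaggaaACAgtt
Snord22 (chr19:8725866-8725991, plus strand): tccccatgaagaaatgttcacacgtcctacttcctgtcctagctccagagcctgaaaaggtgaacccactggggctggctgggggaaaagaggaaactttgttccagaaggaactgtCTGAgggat
Snord87 (chr1:9942463-9942549, minus strand): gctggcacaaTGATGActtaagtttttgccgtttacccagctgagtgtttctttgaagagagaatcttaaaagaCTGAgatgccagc
Snora73a and Snora73b were identical at 198 of 205 aligned positions (96.6%), so the split of reads between them is uncertain.

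Snora9, in Snhg15, was listed at 0, 0 and 0.266 in the knockout libraries, against 42.5, 31.1 and 40.3 in the WT libraries (TPM scale). Its log2 fold change was -5.50 (SE 0.326, limma BH-adjusted p 4.91e-07), a size that depends on the pseudocount because values are near 0, while its host was at 0.05. Snora44, in Snhg12, was at 7.41, 11.9 and 6.70 in the knockout libraries and 32.9, 33.4 and 59.3 in the WT libraries, a log2 fold change of -2.07 (limma BH-adjusted p 0.000476) beside 0.21 for its host. All knockout values of both snoRNAs lay below all WT values.

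Snora73b was at 105, 83.1 and 84.9 in the knockout libraries and 292, 217 and 277 in the WT libraries, a log2 fold change of -1.39 (limma BH-adjusted p 6.74e-06), against -0.14 for Snhg3. Snora73a differed less, at 111 ± 12.7 in knockout and 189 ± 17.3 in WT libraries (SD, n = 3), a log2 fold change of -0.63 (limma BH-adjusted p 0.000349). Gm23639, the snoRNA inside Epb41l4aos, was at 70.9, 59.1 and 65.8 in the knockout libraries, against 177, 151 and 167 in the WT libraries. Its log2 fold change was -1.23 (limma BH-adjusted p 9.28e-06), opposite in sign to its host at 0.29.

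The 3 box C/D or unclassified snoRNAs that were not called differed among themselves. Snord22, in Snhg1, was at 151, 110 and 135 in the knockout libraries and 183, 143 and 208 in the WT libraries (log2 fold change -0.34, limma BH-adjusted p 0.115). Without WT replicate 2 it was called lower at -0.50, and without WT replicate 3 it was -0.16 and not called. Snord87, in Snhg6, was at 66.6, 59.6 and 64.2 in the knockout libraries and 47.6, 40.3 and 47.9 in the WT libraries, without overlap (log2 fold change 0.39, limma BH-adjusted p 0.0816). Gm22357, in Gas5, was at 44.5, 55.6 and 42.0 in the knockout libraries, against an uneven 9.24, 65.9 and 142 in the WT libraries (log2 fold change -0.01, limma BH-adjusted p 0.995). Its direction turned with the WT library left out: it was called lower at -1.10 without WT replicate 1 and stood at 0.84, not called, without WT replicate 3.

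The log2 ratio of snoRNA to host did not overlap between genotypes for 7 of the 8 pairs, Gm22357 with Gas5 being the exception. Single genes stood apart often: on the TPM scale 32.5% of all tested genes were higher and 35.7% lower without overlap. Of all 215 tested snoRNAs, 43.7% were called lower. The share of separated ratios was not computed for snoRNAs in other hosts, so whether the count is particular to these pairs is not known. For Snora9 over Snhg15 it was -6.01 ± 0.236 in knockout and -0.88 ± 0.241 in WT libraries (SD, n = 3, TPM scale + 1, which bounds the knockout value). For Gm23639 over Epb41l4aos it was -0.73 ± 0.196 in knockout and 0.77 ± 0.203 in WT libraries, and for Snora73b over Snhg3 -0.26 ± 0.202 and 1.01 ± 0.254. The ratio of Snord87 to Snhg6 went the other way, at -0.33 ± 0.037 in knockout and -1.07 ± 0.301 in WT libraries. Each of the 7 had an exact permutation p of 0.1 (two-sided, or 0.117 adjusted over 21 ratios), the smallest possible here. For Snora44 over Snhg12 and Snord87 over Snhg6 it was fixed, because snoRNA and host already stood apart in opposite directions on the TPM scale. For Snora9, Gm23639, Snora73b and Snora73a it was settled by the snoRNA alone, whose genotype gap was wider than its host's whole range. Snora73a, for example, was at most 121.3 in knockout and at least 169.2 in WT libraries, while Snhg3 ran from 107.0 to 131.5. The ratios named here therefore add no separate test to the fold changes above.

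**Figure D3:**
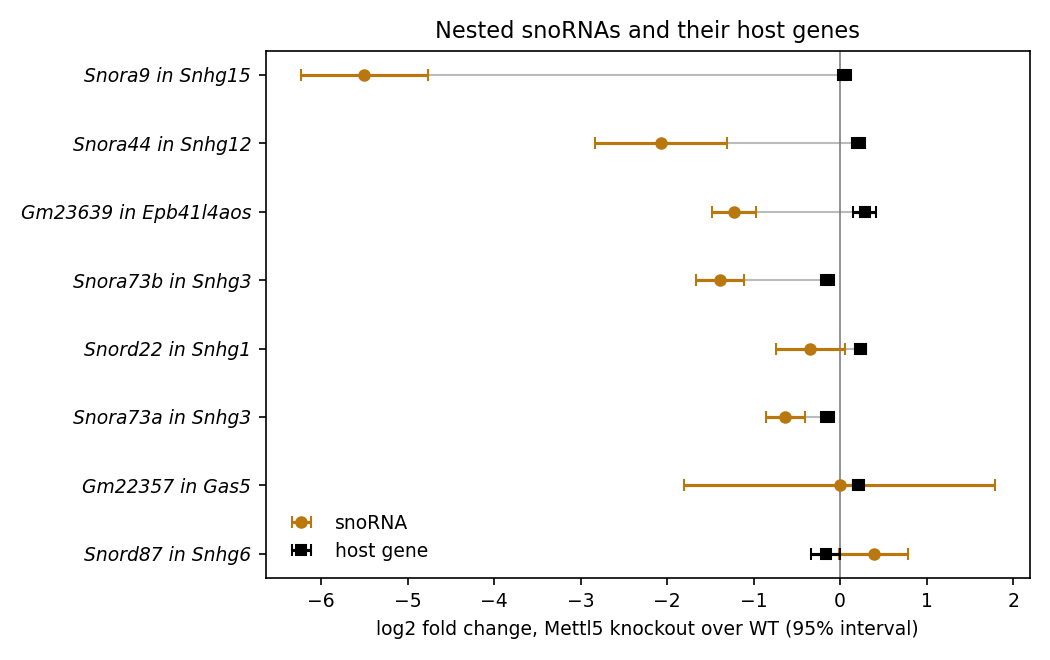
Log2 fold change, knockout over WT, of 8 nested snoRNAs (ochre circles) and of the gene that hosts each (black squares), with 95% intervals; a grey line joins each pair. The hosts lie between -0.17 and 0.29, while the snoRNAs run from -5.50 (Snora9) to 0.39 (Snord87).

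Of 9 neighbouring protein-coding genes, overlapping a host or nearest within 10 kb, 2 were called higher and 4 lower, beside 33.6% and 28.9% of all tested genes. With equal totals, the TPM column, values centred per chromosome or no intensity trend, 1 was called higher. Lower calls rose to 5 with equal totals and 6 with values centred per chromosome, beside 37.8% and 29% of all tested genes. Slc3a2, the heavy chain of amino acid transporters, starts 106 bases from Snhg1 on the opposite strand. It was at 147 ± 1.8 in knockout and 206 ± 5.42 in WT libraries (TPM scale, SD, n = 3), a log2 fold change of -0.42 (limma BH-adjusted p 8.26e-07) where Snhg1 was at 0.24. Trnau1ap, a selenocysteine tRNA partner near Snhg12, had a log2 fold change of -0.29 beside 0.21 for its host neighbour. Myo1g, an unconventional myosin gene near Snhg15, was at 1.01 ± 0.259 in knockout and 13.2 ± 0.638 in WT libraries and had a log2 fold change of -3.61, or -3.22 relative to its chromosome.

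Znfx1, whose start lies 81 bases from that of Zfas1 on the other strand, had a log2 fold change of -0.06 (limma BH-adjusted p 0.353) that was called lower with equal totals at -0.21. Zbtb37, overlapping Gas5 on the opposite strand, was called higher at 0.47 from a low level, 3.70 ± 0.353 in knockout and 2.76 ± 0.112 in WT libraries. Mcmdc2, overlapping Snhg6 on the opposite strand, was called lower at -1.19. Rcc1 overlaps Snhg3 on the same strand, with starts 81 bases apart. It was at 89.0 ± 3.76 in knockout and 87.7 ± 3.66 in WT libraries (log2 fold change 0.10, limma BH-adjusted p 0.0668). Epb41l4a was called higher at 0.13, which was -0.03 with equal totals and called lower, at -0.12, relative to its chromosome. Prss12, near Snhg8, was at 0.145 ± 0.0166 in knockout and 0.101 ± 0.03 in WT libraries and was not called. No source used here states whether counting used strand, so values of overlapping genes are uncertain. For Snhg3 and Rcc1 a strand option would not remove this, because they share a strand.

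For the calls of the snoRNP proteins, the shares of all tested genes were 33.6% higher and 28.9% lower. Among the 4 box C/D core proteins, Nop56 (log2 fold change 0.46), Nop58 (0.30) and Snu13 (0.17) were called higher. Fbl, the methyltransferase fibrillarin, was called lower at -0.12, a call lost without knockout replicate 2 or 3. Nop56 was at 446 ± 6.78 in knockout and 341 ± 8.39 in WT libraries (TPM scale, SD, n = 3), and it is a snoRNA host itself. Among the 4 box H/ACA proteins, Dkc1, the pseudouridine synthase dyskerin, and Gar1 were called higher at 0.19 and 0.13, and Nop10 and Nhp2 lower at -0.21 and -0.10. With equal totals the calls of Dkc1, Gar1 and Snu13 were lost, with Gar1 at -0.02, and relative to chromosome 11 Nhp2 was called higher at 0.29.

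Of 12 snoRNP assembly and trafficking factors, 7 were called lower and 4 higher (median -0.14), beside 28.9% and 33.6% of all tested genes. Coil, which encodes the Cajal body protein coilin, was at 23.6 ± 0.79 in knockout and 49.9 ± 0.921 in WT libraries (SD, n = 3; log2 fold change -1.03, limma BH-adjusted p 8.63e-09). Shq1 and Naf1, assembly factors of box H/ACA particles, had log2 fold changes of -0.62 and -0.53, and Znhit3, a box C/D assembly factor, one of -0.57. These 4 genes lie on chromosomes 11, 6, 8 and 11, whose tested genes had medians of -0.41, -0.29, -0.38 and -0.41. Relative to their chromosomes they were at -0.63, -0.33, -0.17 and -0.18 and were still called lower.

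Nonsense-mediated decay factors, which act on spliced host RNAs, had 7 of 16 called lower and 1 higher, or 2 higher without WT replicate 2 (median -0.10), beside 28.9% and 33.6% of all tested genes. With equal totals 13 were lower and 1 higher (median -0.26), beside 37.8% and 26.1% of all genes. Smg6, the decay endonuclease, was at 7.82 ± 0.238 in knockout and 13.8 ± 0.158 in WT libraries, and Upf1, the central helicase, at 22.4 ± 0.874 and 33.2 ± 0.34 (SD, n = 3). Their log2 fold changes were -0.76 and -0.52, or -0.37 and -0.16 relative to chromosomes 11 and 8. Upf3a, also on chromosome 8, was called lower at -0.34, and relative to its chromosome it was at 0.02. With values centred per chromosome 4 factors were called higher and 7 lower.

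**Figure D4:**
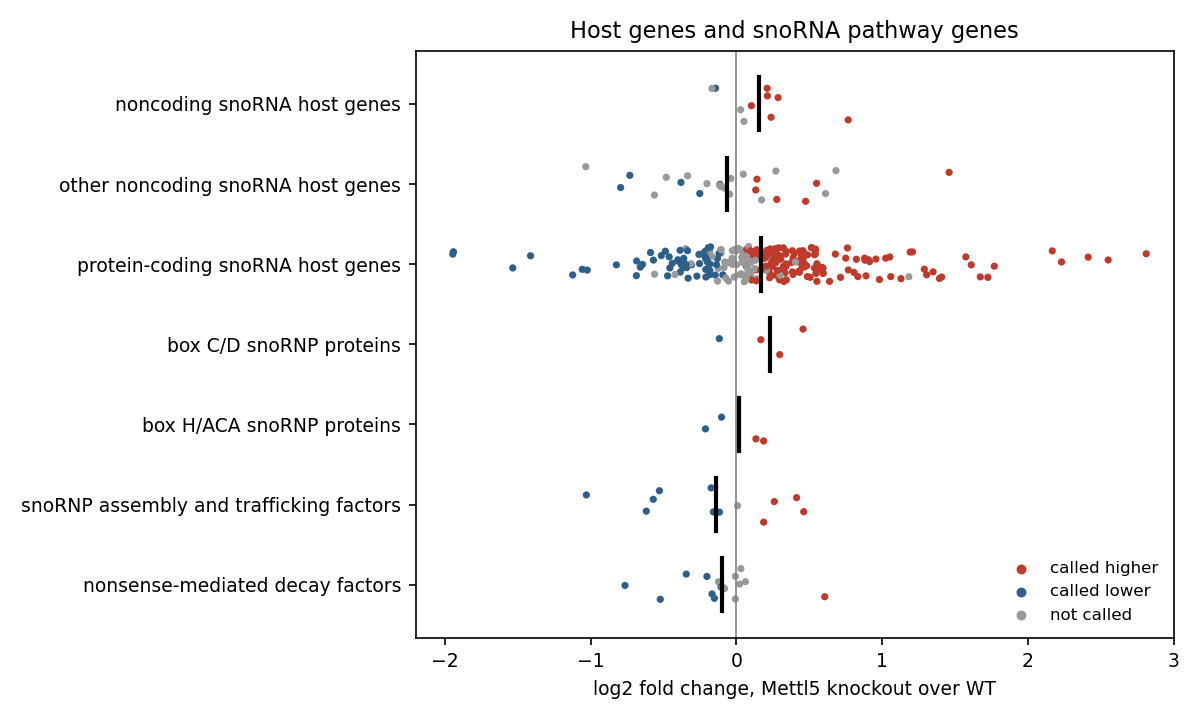
Log2 fold change of single genes, knockout over WT, in the host gene lists and in the snoRNA pathway lists; red points were called higher, blue lower and grey not called, black bars are list medians, and 2 genes lie beyond the axis. The noncoding hosts have a median of 0.16, beside 0.17 for the 251 tested protein-coding hosts and -0.06 for 26 other noncoding hosts.

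Host genes of other kinds give a frame for these values. They were taken by position alone: any annotated snoRNA inside the gene, on its strand and outside its exons, counted. Whether they yield a snoRNA was not tested, and GENCODE gene types alone decided which were noncoding. Of 251 tested protein-coding genes that hold an annotated snoRNA in an intron, 137 were called higher and 56 lower (median 0.17). These were 54.6% and 22.3%, beside 33.6% and 28.9% of all tested genes. With equal totals 100 were higher and 88 lower (median 0.02), or 39.8% and 35.1%, beside 26.1% and 37.8% of all genes. The protein-coding hosts with the smallest p-values were Lpp, Maged2, Frmd4b and Rock2, with log2 fold changes of 2.55, 1.57, 1.73 and 1.29. Of 26 other noncoding host genes, 6 were called higher and 5 lower, beside 33.6% and 28.9% of all tested genes. Lower calls fell to 3 without knockout replicate 2 or 3 or WT replicate 1 or 3. With equal totals 4 of the 26 were higher and 9 lower (median -0.22), beside 26.1% and 37.8% of all genes. 1110038B12Rik was at 287 ± 6.9 in knockout and 207 ± 5.27 in WT libraries (log2 fold change 0.55). 2410006H16Rik, on chromosome 11, was at 208 ± 6.14 in knockout and 370 ± 30.2 in WT libraries (-0.73). The imprinted hosts Snhg14 and Rian had log2 fold changes of -0.79 and -0.25, and each of these 4 had a limma BH-adjusted p of 9.67e-06 or smaller.

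Over the 6 libraries, the genes nearest to Gas5 were Gmnn, Ifrd1, Pym1, Hsd17b12 and Morf4l1, at Euclidean distances of 0.0289 to 0.0373 between log2 values centred on each gene's mean, among 2043 other annotated genes at or above the level of Snhg15. Their log2 fold changes were 0.19 to 0.22. Among the hosts, Snhg1 was the nearest to Gas5 at 0.0698, followed by Snhg12 at 0.104, and Snhg5 the farthest at 0.683. These distances describe likeness over 2 genotypes and nothing more.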

How the data were processed

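PolyA RNA was measured in 3 Mettl5 knockout and 3 WT libraries, grouped by sample title. The submitters' processing notes name kallisto (pseudoalignment), sleuth and mm10, with no version; the transcript set and strand option are not given in any source used here. The table deposited by the authors holds 2 signal columns per gene, named per the file headers scaled reads per base and TPM. Neither holds counts, and 29.7% to 32.8% of low scaled values lay within 0.02 of whole multiples of a step of each library, so no count test was run; dividing library totals by that step estimates depth. The TPM signal sums to 1019930 to 1022473 in knockout and 969838 to 978167 in WT libraries, so it is called the TPM scale.

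Using limma 3.58.1 in R 4.3.3, log2(scaled reads + 1) was modelled with an intensity trend for 24183 genes (mean 1 or more), with Benjamini-Hochberg adjustment over all of them and a threshold of 0.05. Fold changes are on that scale, knockout over WT. The fit was tested on simulated data. GENCODE M21 matched 23846 of 24191 identifiers. All 10 hosts passed the filter, and no host had values identical to another gene. A snoRNA counted as nested when it lay inside a host on its strand; for other hosts it also had to lie outside exons of transcripts not annotated as retained introns. Named genes were all hosts, their nested snoRNAs and neighbours, up to 4 genes with the smallest p in each list, the 5 genes nearest to Gas5 and Mettl5. Lpp, Maged2, Frmd4b and Rock2, and the 4 other noncoding hosts, were taken by that rule. A gene of the lists is not reported here by name. The members and lists were chosen with earlier results of these data known. Alternatives were other scalings, filters, pseudocounts, the TPM column, centring per chromosome, no trend, a replicate block and leaving out each library. Replicate pairs differed by more than counting noise (chi-square per degree of freedom 2.95 to 7.02). Python 3.11.15, pandas 2.3.3, numpy 2.4.6, Biopython 1.88 and matplotlib 3.10.9 were used.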

Additional observations from a re-analysis of the deposited data

How the results depend on the processing

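Snhg5, Snhg1 and Snhg3 kept their call and direction under every alternative tried. With equal library totals, 2 hosts were called higher and 3 lower, in place of 6 and 1; Gas5 was at 0.054 (limma BH-adjusted p 0.0998), Snhg12 at 0.057 (0.174) and Epb41l4aos at 0.129 (0.0692), none called, Zfas1 turned to -0.053 (0.101), Snhg15 was called lower at -0.104 and Snhg6 at -0.325. With the TPM column 2 hosts were lower, with Snhg6 called at -0.252 and Zfas1 not called at 0.029. With values centred per chromosome 2 were lower, with Snhg6 called at -0.279 and Snhg15 called higher at 0.448, while Zfas1 (0.012) and Epb41l4aos (0.039) were not called. Without the intensity trend Zfas1 was not called (0.103, limma BH-adjusted p 0.0589). The causes were not tested. Leaving out each library gave 6 to 7 hosts higher and 1 to 2 lower; Snhg6 ranged from -0.217 to -0.078 and Snhg8 from -0.014 to 0.111. TMM factors, other pseudocounts and other filters changed no call of a host.

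Replicate numbers in the titles did not pair the samples: deviations of same-numbered libraries correlated at 0.007, 0.011 and 0.032. The replicate block left 6 hosts higher and 1 lower, with 8183 and 6927 of all genes called in place of 8137 and 6998, and Snord22 was called lower under it (-0.344, limma BH-adjusted p 0.0345).

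Among the other lists, equal totals gave 88 protein-coding hosts lower in place of 56 and 13 decay factors lower in place of 7. They also gave 9 other noncoding hosts lower in place of 5, and no box H/ACA protein higher in place of 2. The share of all tested genes called lower was 37.8% with equal totals in place of 28.9%. The TPM column and centring per chromosome each gave 1 box H/ACA protein higher. The other noncoding hosts called lower fell to 3 without knockout replicate 2 or 3 or WT replicate 1 or 3. Fbl lost its call without knockout replicate 2 or 3 and without the trend, which left 0 box C/D proteins lower, and 1 box H/ACA protein was lower without knockout replicate 3, without the trend or with centring. Decay factors called higher were 4 with centring and 2 without WT replicate 2, in place of 1. Of the neighbours, 1 in place of 2 was higher with equal totals, the TPM column, centring or no trend. In place of 4, 5 neighbours were lower with equal totals and 6 with centring. Snord87 was called higher with the TPM column (0.482) and without the trend (0.390), and Snord22 lower with equal totals (-0.50) and without WT replicate 2 (-0.503). Gm22357 was called lower, at -1.103, without WT replicate 1, and turned to 0.842, not called, without WT replicate 3.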

Other observations

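Among the 251 protein-coding snoRNA host genes, 28 encode cytosolic ribosomal proteins. Of these, 16 were called higher and 2 lower (median log2 fold change 0.23), against 13 and 9 at a common total (median 0.08). Of the 223 other protein-coding hosts, 121 were higher and 54 lower (median 0.17), against 87 and 79 at a common total (median 0.01). Among all tested genes, 33.6% were called higher and 28.9% lower, against 26.1% and 37.8% at a common total. The hosts farthest from 0 in each direction, named after their values were seen, were as follows. Robo2, an axon guidance receptor gene, was at 4.79 in knockout and 0.0709 in WT cells on average (TPM scale; log2 fold change 6.08), and Cdh13, a cadherin gene, at 2.07 and 0.126 (4.13). The germline genes Piwil2 and Tex14 were at 2.26 and 2.83 in knockout cells, against 9.15 and 11.6 in WT cells (log2 fold changes -1.95 and -1.94).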
